A study of Mus musculus with 44 samples.

Results

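CH12.LX, an established cell line grown from a mouse B cell lymphoma and able to secrete antibody when stimulated, was compared at 48 h with the same line at 36 h after activation in the presence of vehicle alone. The comparison uses 8 of the 44 arrays of the study, 4 of DMSO cells at 48 h and 4 of DMSO cells at 36 h, chosen by their treatment and time labels and paired by replicate number. Both groups were plated at 100000 cells per ml, activated at 0 h with lipopolysaccharide (LPS) of Salmonella typhosa, an outer membrane molecule of bacteria to which B cells respond, and given dimethyl sulfoxide (DMSO) at 0.01%. The other groups used here carried 10 nM of TCDD, a dioxin that binds the aryl hydrocarbon receptor (AhR), for 48 or 36 h, or DMSO for 8, 12 or 24 h, or were untreated cells at 0 h, and TCDD cells at 8, 12 and 24 h entered only the fit of all 44 arrays. Each of the 4 replicates was treated and harvested on its own day. Per the labels, 4 or 2 wells were used per treatment, depending on the time point. All arrays come from 1 cell line, so the error does not cover the spread between animals. The fit takes out shifts shared by a culture day, so the error is the scatter between cultures that remains.

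LPS signals through TLR4 to NF-kB and drives B cells to divide, to enlarge and, in part, to become antibody-secreting cells. Dividing B cells depend on MYC-driven ribosome production and on the enzymes of DNA replication. Secreting cells depend on the unfolded protein response, which matches endoplasmic reticulum (ER) folding capacity to antibody output, and on Prdm1 (Blimp-1), the repressor that shuts down the B cell programme. When amino acids run short or unfolded protein builds up, the integrated stress response slows translation and raises a set of target genes through ATF4. Autophagy and lysosomes recycle cell contents, and many of their genes carry E-box motifs.

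Values are log2 of the quantile-normalized array signal plus 16, whose floor is 4, and n is 4 arrays per group throughout. Differences are given as DMSO 48 h minus DMSO 36 h on this log2 scale, with the standard error from the fit. This scale understates the change of dim genes. A gene is called where the Benjamini-Hochberg adjusted p of limma, a linear model fitted over all genes and blocked on replicate number, is below 0.05. Of 11970 genes tested, 3077 (25.7%) were called, of which 1763 (14.7% of those tested) were higher and 1314 (11%) lower at 48 h. The median log2 change of all genes tested was 0.03, and the called genes had a median absolute change of 0.42. Changes of at least 2-fold were few, with 94 called genes that much higher and 37 that much lower at 48 h. In all 4 same-day pairs the difference ran the same way for 1641 of the genes called higher and for 1203 of those called lower. The 4 arrays at 48 h lay wholly above the 4 at 36 h for 1121 genes (9.37%) and wholly below them for 800 (6.68%). The count rests on the spread estimated over all 44 arrays and on the pairing by day: a fit of the 8 arrays alone called 828 genes, and the fit of all arrays without the block called 1968.

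Median array signals of the 8 arrays ran from 51.2 to 76.4. DMSO 48 h replicate 2 had a 3' to 5' log2 ratio of 2.85 at the transferrin receptor control probe sets, against 0.93 to 1.41 for the other 7 arrays, and 0.78 against 0.32 to 0.57 at the actin probe sets. Without it 2673 genes were called, 1467 higher and 1206 lower. Of 10 B cell markers, 9 had a probe set and all 9 passed the filter, Cd79b at a mean of 12.74 at 48 h and 12.57 at 36 h. The B cell gene Pax5 was dim, at a mean of 6.45 at 48 h and 6.06 at 36 h. Of the T cell, NK cell and fibroblast markers with a probe set (7, 5 and 6 genes), 4, 3 and 4 passed the filter. These were therefore not all near the floor, and limma called 0 of those tested. Cd4 (4.71 at 48 h and 4.59 at 36 h) and Thy1 (5.11 and 5.10) were too dim to test. The 3 erythroid markers with a probe set were too dim to test, and 1 of 5 myeloid markers tested, Csf1r, was called, at 8.34 at 48 h and 8.69 at 36 h. RNA was taken from whole cultures, so fewer cells of a kind and less RNA per cell cannot be told apart.

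Lists whose calls ran one way were found in both directions. Of 32 lists, those for lysosome and autophagy, the integrated stress response, p53 targets and MHC class I and class II presentation had members called higher and 0 called lower, while those for MYC and ribosome biogenesis and for G1/S and DNA replication had members called lower and 0 called higher. NRF2 and antioxidant genes (5 lower of 20) and fatty acid synthesis (4 lower of 14) also had 0 higher, and immediate early genes (1 higher of 18) and CDK inhibitors, D cyclins and pocket proteins (1 higher of 11) also had 0 lower. B cell identity, the BCL2 family and immediate early genes lay near or below the shares of all genes. The counts higher of B cell receptor and TLR4 signalling (3 of 21), TGF-beta signalling (2 of 15) and glycolysis (3 of 17) also lay near the 14.7% of all genes. The list counts below stand beside 14.7% higher and 11% lower of all genes tested. In the fit of the 8 arrays alone the 5 lists named first kept a count of 0 lower, and those for MYC and ribosome biogenesis and for G1/S and DNA replication kept a count of 0 higher, although fewer members were called. Leaving out 1 array added 1 lower member to lysosome and autophagy (without DMSO 48 h replicate 3 or 4) and to MHC class II (without DMSO 36 h replicate 3). In lists with 1 or 2 members called in a direction, that small count often moved by 1 when an array was left out.

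**Figure D1:**
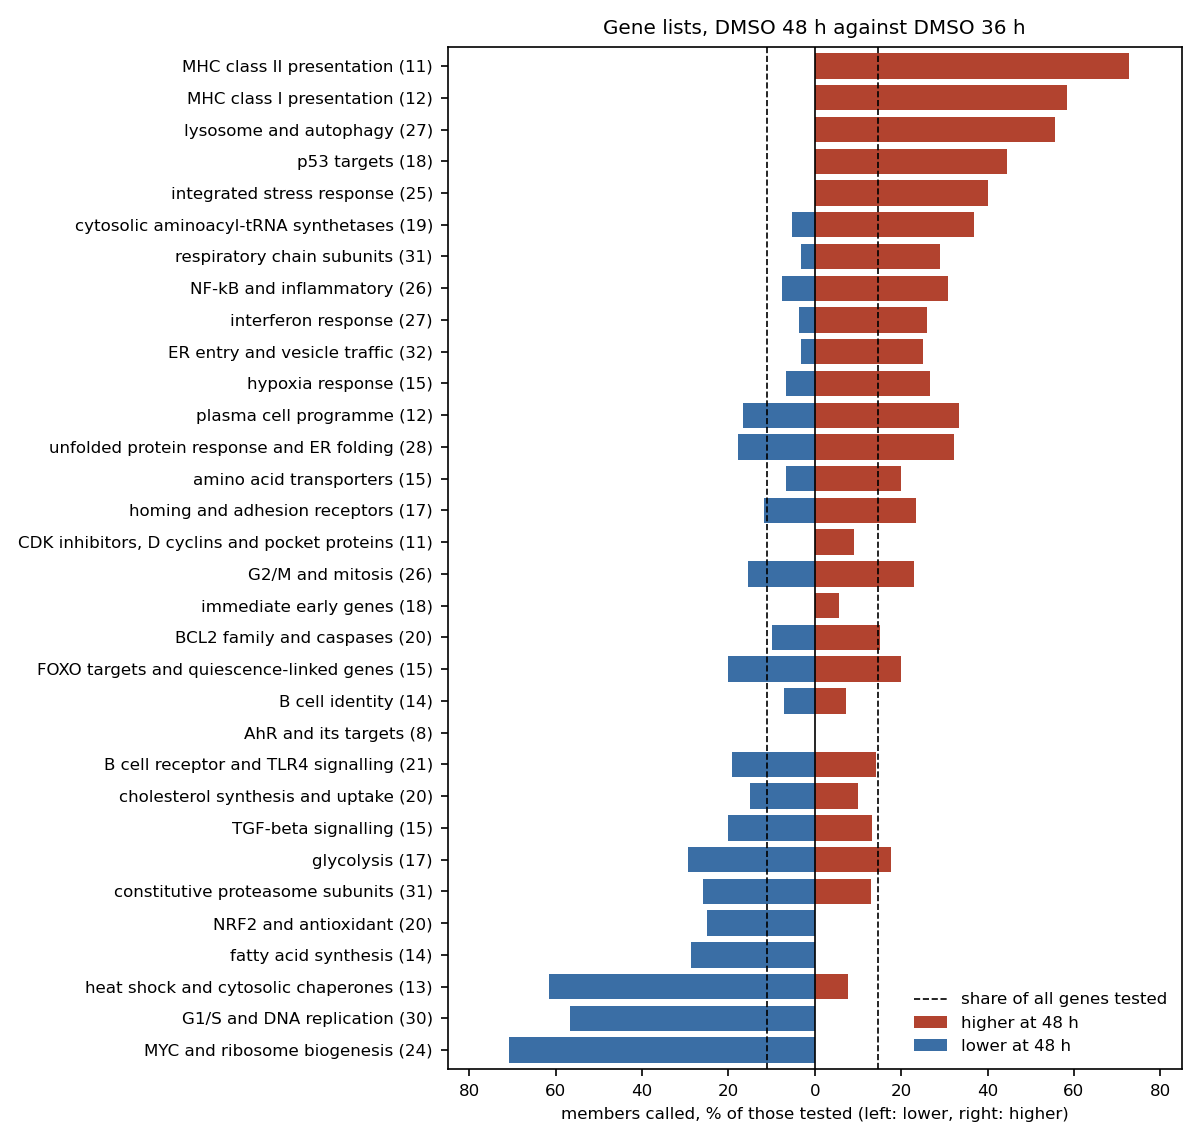
Share of each gene list called at 48 h against 36 h in vehicle cells, in percent of its members tested (number in brackets), with the share called higher to the right and the share called lower to the left. The dashed lines mark the shares of all genes tested, 14.7% higher and 11% lower. MHC class II presentation (8 of 11) has the longest bar on the right and MYC and ribosome biogenesis (17 of 24) the longest on the left.

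Genes of the integrated stress response were higher at 48 h. Of 25 members tested, 10 rose and 0 fell, and the median change was 0.44, against 0.03 for all genes. Nupr1, a small stress-induced chromatin protein, read 12.58, 12.60, 12.46 and 12.37 at 48 h, against 11.53, 10.47, 11.22 and 10.59 at 36 h. Its 4 arrays at 48 h all lay above those at 36 h, and the log2 change was 1.55 ± 0.41 (adjusted p = 0.00448), a fold change of 2.93. Ddit3, which encodes CHOP, a transcription factor of prolonged stress, read 11.86, 12.09, 11.87 and 11.67 at 48 h, against 10.60, 10.35, 11 and 10.33 at 36 h. Here too the groups did not overlap, with a log2 change of 1.30 ± 0.21 (adjusted p = 2.21e-05). Fgf21, a secreted hormone raised by ATF4, read 9.35, 9.24, 8.94 and 8.90 at 48 h, against 8.13, 8.13, 8.39 and 7.68 at 36 h, and rose by 1.02 ± 0.25 (adjusted p = 0.0028). Pck2, the mitochondrial phosphoenolpyruvate carboxykinase, rose by 0.90 ± 0.19 (adjusted p = 0.000482), but its other probe set was not called (0.23). Atf4 itself was bright, at 13.93, 13.74, 13.81 and 13.79 at 48 h, against 13.78, 13.70, 13.80 and 13.71 at 36 h, with a change of 0.07 ± 0.11 (adjusted p = 0.682), which did not pass the test, while its other probe set bright enough to test was called lower (-0.47). Asns, asparagine synthetase, was dim and also did not pass, at -0.08 ± 0.29 (adjusted p = 0.877). The genes of amino acid supply were less uniform. Of 19 cytosolic aminoacyl-tRNA synthetases, which load amino acids onto tRNA, 7 rose and 1 fell (median 0.14), among them Sars at 0.43 ± 0.08 (adjusted p = 6.98e-05), Eprs at 0.37 ± 0.09 (adjusted p = 0.00197) and Cars at 0.36 ± 0.10 (adjusted p = 0.00703). Without DMSO 48 h replicate 2 only 3 synthetases were called higher. Of 15 amino acid transporters, 3 rose and 1 fell (median 0.30). The glycine transporter Slc6a9 rose by 0.62 ± 0.17 (adjusted p = 0.00834), and the antiporter subunit Slc3a2, also a member of the stress response list, by 0.31 ± 0.08 (adjusted p = 0.00526). Slc7a6 fell by 0.40 (adjusted p = 5.76e-05), but its other probe set was not called (-0.08). The leucine transporter Slc7a5 was at 0.07 ± 0.09 (adjusted p = 0.638).

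The promoters of Nupr1 and Fgf21 are shown because both hold the composite motif bound by C/EBP and ATF factors. Each window runs from 250 bases before to 50 bases after the RefSeq gene start, in GRCm38.p6, 5′ to 3′ on the gene's strand, with the motif match in capitals. Nupr1 lies at chr7:126625421-126625720, minus strand, and Fgf21 at chr7:45615441-45615740, minus strand. TGATGNAAT was searched on both strands, and both genes hold it on the reverse strand as ATTGCATCA.
Nupr1: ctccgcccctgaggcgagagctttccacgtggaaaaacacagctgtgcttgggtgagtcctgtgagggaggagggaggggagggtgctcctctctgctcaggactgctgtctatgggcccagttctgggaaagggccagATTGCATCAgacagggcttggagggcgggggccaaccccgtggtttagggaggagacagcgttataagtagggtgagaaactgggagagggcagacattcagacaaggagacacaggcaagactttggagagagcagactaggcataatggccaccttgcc
Fgf21: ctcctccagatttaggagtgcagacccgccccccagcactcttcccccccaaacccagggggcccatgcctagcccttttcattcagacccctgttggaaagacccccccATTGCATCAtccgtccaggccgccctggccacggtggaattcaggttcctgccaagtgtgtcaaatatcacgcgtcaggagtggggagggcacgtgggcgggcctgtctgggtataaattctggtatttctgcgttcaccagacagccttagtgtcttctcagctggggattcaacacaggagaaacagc
Of the 10 stress response genes called higher, 2 hold this motif, against 293 of 27025 promoter windows in all (1.08%). The motif also stood in 1 of 5 NF-kB and inflammatory genes called higher, the same share of 20%. The match begins at position -111 from the start in Nupr1 and at -140 in Fgf21. In all 10 motifs were searched in 17 sets of called genes, and a match describes these letters only.

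Of 27 lysosome and autophagy genes tested, 15 rose, 0 fell and 12 did not pass, with a median change of 0.34. Atg12, the ubiquitin-like protein needed to extend the autophagosome membrane, read 10.13, 9.76, 9.78 and 9.15 at 48 h, against 9.03, 8.64, 8.45 and 8.13 at 36 h. No array at 36 h reached the lowest array at 48 h, and the change was 1.14 ± 0.11 (adjusted p = 5.85e-09). Map1lc3a, a protein of the autophagosome membrane, read 8.19, 9.03, 8.51 and 8.68 at 48 h, against 7.30, 7.67, 7.77 and 7.61 at 36 h, and rose by 1.01 ± 0.23 (adjusted p = 0.00137). Ulk1, the kinase that starts autophagy, read 8.79, 9.17, 8.61 and 8.29 at 48 h, against 8.12, 7.82, 8.16 and 7.35 at 36 h, and rose by 0.85 ± 0.20 (adjusted p = 0.00155). All 3 genes were separated between the times in every array. The protease Ctsl was dim and called at 0.89 ± 0.31 (adjusted p = 0.0318), a call lost without any 1 of DMSO 48 h replicates 1, 2 or 3 or DMSO 36 h replicates 1 or 3, where the change ran from 0.57 to 0.93. Tfeb, a transcription factor of lysosome genes, did not pass the test (-0.19 ± 0.23, adjusted p = 0.596), and neither did the lysosome membrane gene Lamp1 (0.06). Lamp2, of the same kind, did not pass by its brightest probe set (0.33), but 2 of its 3 other probe sets were called higher (0.29 and 0.27).

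The E-box CACGTG stood in the promoter windows of 5 of the 12 lysosome and autophagy genes called higher that have a window (41.7%), against 8.09% of all windows. It also stood in 2 of 5 p53 targets and 3 of 9 ER folding genes called higher, and in 2 of 5 glycolysis genes called lower. Ctsa and Ctsd, which encode the lysosomal proteases cathepsin A and cathepsin D, are shown because each holds it in 2 places. Both genes were singled out for these matches after their values were seen. Ctsd read 10.81, 11.45, 10.93 and 11.07 at 48 h, against 10.26, 10.59, 10.56 and 10.59 at 36 h (change 0.57 ± 0.12, adjusted p = 0.000559), and Ctsa changed by 0.34 ± 0.10 (adjusted p = 0.0136), a call lost without DMSO 36 h replicate 2 (0.31). Ctsa lies at chr2:164833523-164833822, plus strand, and Ctsd at chr7:142387778-142388077, minus strand. Capitals mark the E-boxes.
Ctsa: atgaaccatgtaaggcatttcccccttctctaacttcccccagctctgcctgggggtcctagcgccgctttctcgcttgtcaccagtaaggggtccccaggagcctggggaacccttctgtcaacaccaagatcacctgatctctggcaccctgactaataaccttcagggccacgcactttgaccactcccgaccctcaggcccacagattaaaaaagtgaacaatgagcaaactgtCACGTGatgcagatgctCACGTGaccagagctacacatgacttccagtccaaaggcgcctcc
Ctsd: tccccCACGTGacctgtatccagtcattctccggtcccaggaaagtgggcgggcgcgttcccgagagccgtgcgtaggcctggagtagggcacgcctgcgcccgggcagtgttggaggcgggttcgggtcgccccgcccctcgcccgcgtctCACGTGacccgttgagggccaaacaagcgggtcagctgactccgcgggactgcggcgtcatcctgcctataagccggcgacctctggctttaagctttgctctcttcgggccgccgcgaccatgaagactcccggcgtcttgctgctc

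Among p53 targets, 8 of 18 tested rose and 0 fell (median 0.45). Fas, the death receptor, read 11.61, 11.21, 10.63 and 10.08 at 48 h, against 10.38, 9.62, 8.95 and 9.07 at 36 h. The 2 groups overlapped, but each day's 48 h array was higher than its 36 h array, and the change was 1.38 ± 0.28 (adjusted p = 0.00037). Gadd45a, a growth arrest gene, read 9.38, 9.02, 8.79 and 8.91 at 48 h, against 8.42, 7.90, 8.04 and 7.55 at 36 h, without overlap, and rose by 1.05 ± 0.27 (adjusted p = 0.00418). Trp53inp1 rose by 0.82 ± 0.21 (adjusted p = 0.00342) and Zmat3, an RNA-binding protein, by 0.69 ± 0.13 (adjusted p = 0.000126). The list's best known members did not all take part. Cdkn1a, the p21 inhibitor of cyclin-dependent kinases, was higher in all 4 arrays at 48 h but did not pass the test (0.46 ± 0.21, adjusted p = 0.102), and Mdm2, which degrades p53, was at -0.22 ± 0.14 (adjusted p = 0.285). Within the BCL2 family and caspases, 3 of 20 rose and 2 fell, shares close to those of all genes. The survival factor Bcl2 read 11.78, 11.66, 11.03 and 11.35 at 48 h, against 10.96, 10.66, 10.90 and 10.33 at 36 h, and rose by 0.74 ± 0.15 (adjusted p = 0.000498), with 1 of its 4 other probe sets called higher and 3 not called. Pmaip1 (Noxa), which promotes cell death and is also a p53 target, rose by 0.60 ± 0.11 (adjusted p = 0.000168). Mcl1, another survival factor, fell by 0.60 (adjusted p = 0.0147), a call lost without DMSO 48 h replicate 3 (-0.54) or DMSO 36 h replicate 4 (-0.53), and the count lower was 1 when any array but DMSO 48 h replicate 1 was left out. The other probe sets of Mcl1 were called lower too (-0.26 to -0.42), apart from that at -0.16.

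Antigen presentation genes were higher at 48 h. For MHC class II, which shows peptides to helper T cells, 8 of 11 genes tested rose and 0 fell (median 0.34). Ciita, the coactivator on which class II transcription depends, read 9.56, 9.70, 9.31 and 9.03 at 48 h, against 8.43, 8.38, 8.75 and 8.38 at 36 h. The groups did not overlap, with a change of 0.91 ± 0.15 (adjusted p = 2.37e-05). H2-Eb1, a class II beta chain, read 13.51, 13.51, 13.80 and 13.57 at 48 h, against 12.87, 12.92, 13.25 and 12.98 at 36 h, a change of 0.59 ± 0.08 (adjusted p = 7.35e-07). H2-Oa and H2-Ob, which pair to form the modulator of class II peptide loading, rose by 0.56 ± 0.11 (adjusted p = 0.000314) and 0.67 ± 0.17 (adjusted p = 0.00302). For MHC class I, 7 of 12 rose and 0 fell (median 0.23). Psmb9, a subunit of the immunoproteasome, read 13.95, 13.93, 14.25 and 13.90 at 48 h, against 13.46, 13.51, 13.74 and 13.47 at 36 h, and rose by 0.47 ± 0.06 (adjusted p = 2.16e-06). The peptide transporter gene Tap1 rose by 0.40 ± 0.08 (adjusted p = 0.000403), although the mean of its probe sets gave -0.04, and the heavy chain H2-K1 rose by 0.29 ± 0.08 (adjusted p = 0.00628). Nlrc5, the class I coactivator, was called at 0.31 ± 0.09 (adjusted p = 0.0116), a call lost without DMSO 48 h replicate 2 (0.21) or DMSO 36 h replicate 2 (0.25). B2m, the light chain shared by class I molecules, did not pass (-0.10 ± 0.07, adjusted p = 0.315).

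Calls among interferon response genes were mostly higher. Of 27 tested, 7 rose and 1 fell (median 0.22), beside 14.7% higher and 11% lower of all genes tested. Oas1a, an oligoadenylate synthetase that triggers RNA decay, read 12.00, 12.21, 11.68 and 11.72 at 48 h, against 11.23, 11.36, 11.33 and 11.14 at 36 h, without overlap, and rose by 0.64 ± 0.18 (adjusted p = 0.00969). The calls of Oas3 (0.94 ± 0.34, adjusted p = 0.0401) and of Usp18 (0.80 ± 0.27, adjusted p = 0.0275), which removes the ubiquitin-like ISG15, were each lost without any 1 of DMSO 48 h replicates 1 or 2 or DMSO 36 h replicates 3 or 4, and that of Usp18 also without DMSO 48 h replicate 4. The changes were then 0.64 to 0.91 for Oas3 and 0.63 to 0.75 for Usp18. The count higher was 3 without DMSO 48 h replicate 1 or DMSO 36 h replicate 4, and 4 without DMSO 36 h replicate 3, and 3 genes fell without DMSO 48 h replicate 3. Of the interferon-inducible GTPases, which act against intracellular pathogens, 2 were lower. Irgm1 read 11.44, 10.91, 10.96 and 11.30 at 48 h, against 12.02, 12.00, 11.68 and 11.75 at 36 h, and fell by 0.71 (adjusted p = 0.000653). Iigp1 is outside the list and was named as one of the 12 largest decreases of all genes. It read 8.91, 8.96, 9.20 and 9.03 at 48 h, against 10.35, 10.16, 10.18 and 10.17 at 36 h, a change of -1.19 ± 0.21 (adjusted p = 7.02e-05). Igtp (-0.17) and Gbp2 (-0.14), GTPases of the list, did not pass the test, nor did the chemokine Cxcl10 (-0.60).

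The promoter of Oas1a is shown because it holds overlapping matches to the interferon-stimulated response element, searched on both strands as TTTC, any 2 bases and TTTC. It lies at chr5:120907476-120907775, minus strand, and capitals mark the 2 overlapping matches.
Oas1a: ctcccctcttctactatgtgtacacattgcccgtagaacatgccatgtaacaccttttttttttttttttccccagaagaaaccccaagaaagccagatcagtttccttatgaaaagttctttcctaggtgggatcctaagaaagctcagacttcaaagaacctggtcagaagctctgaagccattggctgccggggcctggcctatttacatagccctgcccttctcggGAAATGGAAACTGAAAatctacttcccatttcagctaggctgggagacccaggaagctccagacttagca
Of the 6 interferon genes called higher with a window, 3 hold the element, against 3.99% of all windows. Irgm1, which fell, holds 2 matches as well, the first beginning at -30 from its start.

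NF-kB target and inflammatory genes rose in part, with 8 of 26 higher, 2 lower and a median of 0.06. Ccl5, a chemokine that attracts T cells, read 9.85, 10.26, 11.16 and 10.73 at 48 h, against 8.89, 8.86, 9.34 and 8.59 at 36 h. All 48 h arrays lay above all 36 h arrays, and the change of 1.58 ± 0.36 (adjusted p = 0.00117) was a fold of 3. Cd83, an activation marker of B and dendritic cells, read 11.49, 11.22, 11.39 and 10.84 at 48 h, against 10.33, 9.94, 10.38 and 9.93 at 36 h, a change of 1.09 ± 0.15 (adjusted p = 1.53e-06). Relb, an NF-kB subunit, rose by 0.83 ± 0.17 (adjusted p = 0.000452), and Nfkbie, an inhibitor of NF-kB, read 12.46, 12.34, 11.97 and 11.74 at 48 h, against 11.57, 10.95, 11.30 and 11.08 at 36 h, and rose by 0.90 ± 0.11 (adjusted p = 3.64e-07). The classical cytokines of the list did not pass. Il6 read 11.50, 10.75, 11.11 and 11.03 at 48 h, against 11, 10.63, 11.01 and 10.17 at 36 h (0.39 ± 0.23, adjusted p = 0.221), Tnf was at -0.40 ± 0.41 (adjusted p = 0.526), and Nfkbia, the main rapid inhibitor, at 0.04 ± 0.07 (adjusted p = 0.715), with 1 of its 4 other probe sets called higher (0.28). Upstream of NF-kB, the LPS adaptor Myd88 read 10.18, 10.17, 10.15 and 10.10 at 48 h, against 10.58, 10.98, 10.57 and 10.89 at 36 h, and fell by 0.60 (adjusted p = 3.30e-06). In the list of B cell receptor and TLR4 signalling, 3 of 21 rose, near the 14.7% of all genes, and 4 fell (median -0.10). Ticam1, the other LPS adaptor, was called higher (0.65 ± 0.17, adjusted p = 0.00509) but not without DMSO 48 h replicate 2 (0.45), and without that array 1 gene of the list was higher. The count lower was 2 without DMSO 48 h replicate 4.

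Secretory genes changed unevenly. Prdm1 read 10.00, 10.27, 10.37 and 10.62 at 48 h, against 10.92, 11.03, 10.72 and 11.14 at 36 h. The 4 arrays at 48 h all lay below those at 36 h, and the change was -0.64 ± 0.08 (adjusted p = 9.11e-07), a fold of 0.643. Irf4, which acts upstream of Prdm1, did not pass (0.15 ± 0.11, adjusted p = 0.313). Xbp1, the transcription factor of the secretory cell, was at 0.19 ± 0.06 (adjusted p = 0.00989), a call lost without DMSO 48 h replicate 1 (0.16), and its 3 other probe sets were not called. Sdc1 (CD138, a surface marker of plasma cells) read 7.06, 7.16, 7.16 and 6.73 at 48 h, against 6.13, 6.87, 6.42 and 6.72 at 36 h (0.49 ± 0.24, adjusted p = 0.131). Ighm and Jchain were not called by their brightest probe sets. Ighm, the IgM heavy chain, read 13.03, 13.12, 12.15 and 12.77 at 48 h, against 13.12, 13.15, 11.90 and 12.49 at 36 h (0.10 ± 0.13, adjusted p = 0.618), and Jchain, which joins IgM into polymers, read 10.28, 9.93, 10.91 and 11.45 at 48 h, against 10.33, 10.18, 10.75 and 11.18 at 36 h (0.03 ± 0.19, adjusted p = 0.929). For both the days lay further apart than the times. Of the 5 other Ighm probe sets bright enough to test, 1 was called lower (-0.50) and 4 were not called (-0.57 to 0.09). In the plasma cell list as a whole 4 of 12 rose and 2 fell, but 2 rose when DMSO 48 h replicate 1, 3 or 4 or DMSO 36 h replicate 1 or 4 was left out, and 1 fell in all leave-outs but that of DMSO 48 h replicate 4. Creb3l2, an ER-bound transcription factor, rose by 0.42 ± 0.10 (adjusted p = 0.00178).

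Of 28 genes of the unfolded protein response and ER folding, 9 rose and 5 fell (median 0.07). Crebrf, which acts against the CREB3 family of factors, read 9.08, 8.66, 8.57 and 7.83 at 48 h, against 7.30, 6.79, 7.21 and 6.78 at 36 h. It changed by 1.52 ± 0.18 (adjusted p = 1.58e-07), with no overlap, and its 2 other probe sets were called in the same direction (0.80 and 1.28). Ern1, which encodes the stress sensor IRE1, read 11.02, 11.06, 10.67 and 10.61 at 48 h, against 10.58, 10.17, 10.13 and 10.07 at 36 h, a change of 0.60 ± 0.14 (adjusted p = 0.00178), with 1 of its 4 other probe sets called higher (0.95) and 3 not called (-0.24 to 0.34). Sel1l, which draws misfolded proteins out of the ER, rose by 0.48 ± 0.07 (adjusted p = 1.09e-05), and the co-chaperone Dnajb9 by 0.42 ± 0.06 (adjusted p = 5.15e-06). The main ER chaperone Hspa5 (BiP) did not pass the test by its brightest probe set (0.08 ± 0.05, adjusted p = 0.247), while of its 2 other probe sets 1 was called lower (-0.48) and 1 was not called (-0.17), and the count lower was 3 without DMSO 36 h replicate 4. Of 32 genes of ER entry and vesicle traffic, 8 rose and 1 fell (median 0.10), but 5 rose without DMSO 48 h replicate 2. Golgb1 (giantin, a tether on Golgi membranes) read 10.63, 11.12, 10.61 and 10.34 at 48 h, against 9.69, 9.73, 9.74 and 9.48 at 36 h, a change of 1.01 ± 0.16 (adjusted p = 1.02e-05), although its other probe set bright enough to test was at -0.06. Srp72, part of the particle that targets new proteins to the ER, rose by 0.39 ± 0.07 (adjusted p = 0.000198).

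Of 14 B cell identity genes 1 rose and 1 fell (median 0.19). Ms4a1, which encodes CD20, read 10.45, 10.15, 10.42 and 10.18 at 48 h, against 10.96, 10.88, 11.01 and 11.06 at 36 h, a change of -0.68 ± 0.09 (adjusted p = 8.03e-07). Spib, an ETS factor of B cells, read 10.56, 10.62, 10.63 and 10.34 at 48 h, against 10.05, 9.82, 9.98 and 9.79 at 36 h, and rose by 0.63 ± 0.13 (adjusted p = 0.000466). Both separated the times in every array. The identity factor Pax5 (0.39 ± 0.28, adjusted p = 0.341) and Bach2, a repressor that opposes Prdm1 (0.61 ± 0.39, adjusted p = 0.27), were dim and did not pass. Among 17 homing and adhesion receptors 4 rose and 2 fell (median -0.09). Ccr7, which guides B cells towards T cell zones, read 13.65, 13.72, 13.34 and 13.19 at 48 h, against 12.66, 12.79, 12.57 and 12.65 at 36 h, a change of 0.81 ± 0.09 (adjusted p = 1.08e-07). Cxcr4 was called at 0.50 ± 0.13 (adjusted p = 0.00465), although DMSO 48 h replicate 2 (10.32) was below its day's 36 h array (10.57). Itgb2, an integrin chain, fell by 0.40 and was not called without DMSO 48 h replicate 2 (-0.33), when 1 receptor was lower, as was the case without DMSO 36 h replicate 1 or 2.

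**Figure D2:**
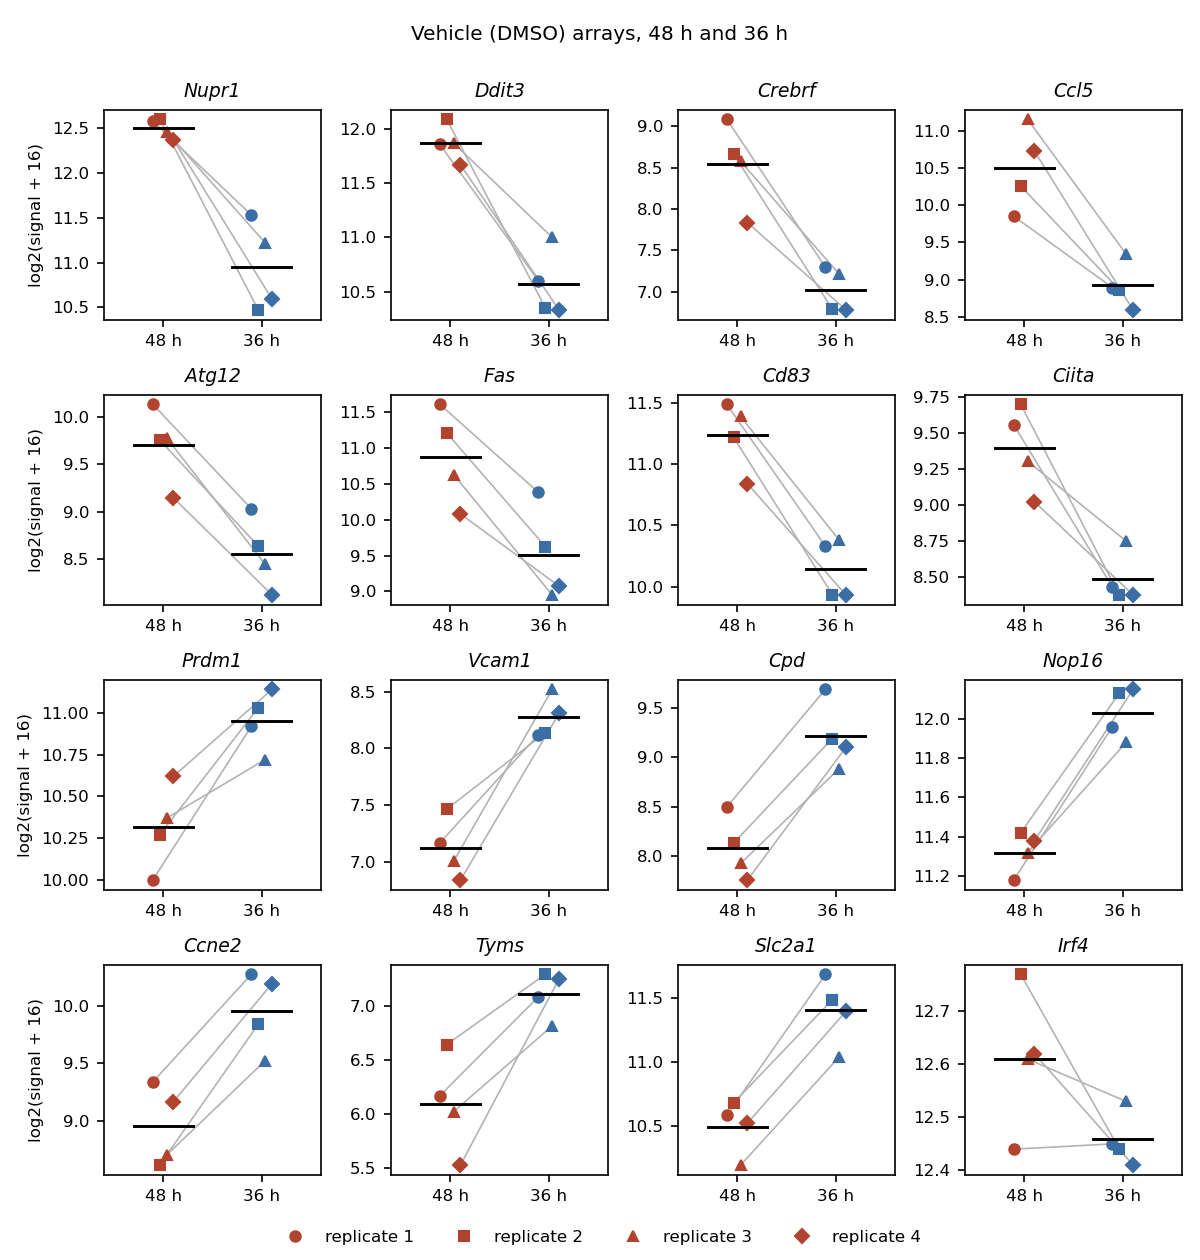
Values of 16 genes in each array, as log2(signal + 16), with DMSO 48 h on the left and DMSO 36 h on the right of each panel. Grey lines join arrays of the same day, marker shapes give the replicate and black bars are group means of 4 arrays. In the panels from Nupr1 to Ciita every line is higher at 48 h, in those from Prdm1 to Slc2a1 every line is lower, and Irf4 overlaps.

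Many genes of ribosome production were lower at 48 h. In the list of MYC and ribosome biogenesis 0 of 24 rose and 17 fell (median -0.30). Nop16, a nucleolar protein of ribosome assembly, read 11.18, 11.42, 11.32 and 11.38 at 48 h, against 11.96, 12.13, 11.88 and 12.15 at 36 h. The groups were far apart relative to their spread, with a change of -0.71 ± 0.06 (adjusted p = 3.51e-09). Its other probe set was not called (0.06). Polr1b, the second largest subunit of RNA polymerase I, read 9.95, 10.17, 9.57 and 9.88 at 48 h, against 10.52, 10.75, 10.58 and 10.64 at 36 h, and fell by 0.73 (adjusted p = 1.45e-06). Rrp12, a ribosome export factor, changed by -0.69 ± 0.17 (adjusted p = 0.00257). Rrs1, which acts in large subunit assembly, was called at -0.51 ± 0.17 (adjusted p = 0.0211), but not without DMSO 48 h replicate 3 (-0.42), DMSO 36 h replicate 3 (-0.46) or DMSO 36 h replicate 4 (-0.45). The other probe set of Rrs1 was called lower (-0.63). Myc itself read 13.04, 12.61, 12.64 and 12.76 at 48 h, against 12.91, 12.86, 12.72 and 12.80 at 36 h. The groups overlapped and the change did not pass (-0.06 ± 0.08, adjusted p = 0.649), nor did that of the abundant nucleolar gene Npm1 (-0.06). For 2 more abundant nucleolar genes the probe sets disagreed. Ncl, nucleolin, did not pass by its brightest probe set (-0.13), but its 4 other probe sets were called lower (-0.40 to -1.19), and Fbl, fibrillarin, did not pass either (-0.03), but its other probe set was called lower (-0.34).

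Genes of G1/S and DNA replication were also lower, with 0 of 30 higher, 17 lower and a median of -0.30. Ccne2, cyclin E2, which drives entry into S phase, read 9.34, 8.62, 8.71 and 9.17 at 48 h, against 10.27, 9.84, 9.52 and 10.19 at 36 h. It fell in every pair, by 0.99 (adjusted p = 3.53e-05), a fold of 0.502. Tyms, thymidylate synthase, read 6.17, 6.64, 6.02 and 5.53 at 48 h, against 7.08, 7.29, 6.81 and 7.25 at 36 h, a change of -1.02 ± 0.18 (adjusted p = 8.64e-05). Its other probe set bright enough to test was not called (0.28). Rrm2, the regulated subunit of ribonucleotide reductase, read 13.10, 13.06, 13.05 and 13.41 at 48 h, against 13.72, 13.70, 13.61 and 13.92 at 36 h, and fell by 0.58 (adjusted p = 1.45e-05). E2f1, the S phase transcription factor, did not pass (0.03 ± 0.18, adjusted p = 0.936). The count lower was 13 without DMSO 48 h replicate 2 and 12 without DMSO 48 h replicate 1. Mitotic genes did not share this pattern of counts. Of 26 G2/M and mitosis genes, 6 rose and 4 fell (median -0.07), and 3 rose without DMSO 48 h replicate 4 or DMSO 36 h replicate 3. Kif20a, a kinesin of cell division, fell by 0.51 (adjusted p = 3.27e-05) and the mitotic kinase Plk1 by 0.33 (adjusted p = 0.00115), while the kinetochore motor Cenpe rose by 0.36 ± 0.10 (adjusted p = 0.00493). The other probe set of Cenpe was not called (0.09). Among 11 CDK inhibitors, D cyclins and pocket proteins 1 was called, the retinoblastoma gene Rb1, which read 12.32, 11.87, 11.75 and 11.83 at 48 h, against 11.97, 11.34, 11.17 and 11.40 at 36 h, and rose by 0.47 ± 0.09 (adjusted p = 0.00027). Without DMSO 48 h replicate 2, 4 of these 11 were called higher.

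The promoter of Mcm3, a subunit of the replicative helicase, is shown because it holds the E2F motif TTTGGCGC, in capitals. The gene was singled out for this match after its values were seen, and it changed by -0.25 ± 0.06 (adjusted p = 0.0028). It lies at chr1:20820263-20820562, minus strand.
Mcm3: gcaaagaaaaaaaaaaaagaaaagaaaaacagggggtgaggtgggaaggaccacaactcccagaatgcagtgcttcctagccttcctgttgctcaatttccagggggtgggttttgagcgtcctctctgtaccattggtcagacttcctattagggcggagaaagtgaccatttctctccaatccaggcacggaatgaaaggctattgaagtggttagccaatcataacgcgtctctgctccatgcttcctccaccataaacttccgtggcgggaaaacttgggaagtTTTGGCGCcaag
Of the 13 replication genes called lower with a window, 3 hold TTTGGCGC (23.1%), against 0.58% of all windows, and 3 hold the second form TTTCCCGC, against 1.24%. TTTGGCGC also stood in sets called higher, in 2 of 6 MHC class I genes (33.3%) and 2 of 12 lysosome and autophagy genes (16.7%).

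Cytosolic chaperones were mostly lower, with 8 of 13 lower, 1 higher and a median of -0.21. Hsp90aa1, the inducible HSP90, read 14.36, 14.25, 14.15 and 14.44 at 48 h, against 14.61, 14.66, 14.51 and 14.76 at 36 h, a change of -0.33 ± 0.08 (adjusted p = 0.00127). Dnajb1, an HSP40 co-chaperone, fell by 0.39 (adjusted p = 0.00039), but its other probe set was not called (-0.16). Hspb1, a small heat shock protein, read 10.41, 10.30, 11 and 10.77 at 48 h, against 9.92, 10.07, 10.10 and 10.24 at 36 h, and rose by 0.54 ± 0.09 (adjusted p = 7.22e-05). The fit of the 8 arrays alone called 0 members of this list in either direction. Of 31 constitutive proteasome subunits 4 rose and 8 fell (median -0.08). Psmd6 fell by 0.45 (adjusted p = 8.58e-07) and Psmd7 by 0.38 (adjusted p = 4.11e-06), both parts of the regulatory particle, whose subunit Psmd8 rose by 0.39 ± 0.08 (adjusted p = 0.000466). Of 20 NRF2 target and antioxidant genes 0 rose and 5 fell (median -0.01). Hmox1, heme oxygenase, read 8.82, 8.73, 9.24 and 9.10 at 48 h, against 9.30, 9.48, 9.55 and 9.69 at 36 h, a change of -0.53 ± 0.14 (adjusted p = 0.00501), and the pentose phosphate enzyme Pgd fell by 0.41 (adjusted p = 0.00107).

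Energy metabolism showed members moving in opposite directions. Of 17 glycolysis genes 3 rose and 5 fell (median -0.05). Slc2a1, the glucose transporter GLUT1, read 10.58, 10.68, 10.19 and 10.52 at 48 h, against 11.69, 11.49, 11.04 and 11.40 at 36 h. The groups did not overlap and the change was -0.91 ± 0.14 (adjusted p = 7.16e-06), and its 2 other probe sets were called lower as well (-0.72 and -0.58). Pgam1, phosphoglycerate mutase, read 12.60, 12.63, 12.58 and 12.70 at 48 h, against 13.25, 13.25, 13.08 and 13.16 at 36 h, and fell by 0.56 (adjusted p = 3.51e-09). Eno2, the neuron-type enolase, read 9.71, 9.99, 9.16 and 9.04 at 48 h, against 8.45, 7.88, 8.01 and 8.12 at 36 h, a rise of 1.36 ± 0.17 (adjusted p = 6.05e-07). Of 15 hypoxia response genes 4 rose and 1 fell (median 0.31). Ndrg1, a stress and hypoxia gene, read 9.72, 10.02, 9.07 and 8.60 at 48 h, against 8.60, 8.15, 7.81 and 7.02 at 36 h. Its days differed widely, but it rose in every pair, by 1.46 ± 0.36 (adjusted p = 0.00255), and its 4 other probe sets were called higher too (1.62 to 2.23). Adm, adrenomedullin, rose by 0.65 ± 0.14 (adjusted p = 0.00064) and Mxi1, a MYC antagonist, by 0.65 ± 0.11 (adjusted p = 6.17e-05), while Vegfa (0.34 ± 0.33, adjusted p = 0.501) did not pass. Of 31 respiratory chain subunits 9 rose and 1 fell (median 0.10), with Ndufv1 of complex I at 0.33 ± 0.07 (adjusted p = 0.000396), Sdhb of succinate dehydrogenase at 0.27 ± 0.07 (adjusted p = 0.00222) and Sdhd of the same complex at -0.40 ± 0.10 (adjusted p = 0.0045). With values as deposited, without quantile normalization, 3 subunits rose and 2 fell.

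With both directions pooled, lipid genes were called at about the share of all genes (25.7%), but those of fatty acid synthesis were called only lower. Of 20 genes of cholesterol synthesis and uptake 2 rose and 3 fell (median -0.03), with Idi1 at -0.49 ± 0.11 (adjusted p = 0.00116) and Mvd at 0.47 ± 0.12 (adjusted p = 0.0038). Of 14 genes of fatty acid synthesis 0 rose and 4 fell (median -0.13), led by Me1, malic enzyme, at -0.54 ± 0.12 (adjusted p = 0.000873), and 1 fell without DMSO 48 h replicate 1 or 3 or DMSO 36 h replicate 4. The other probe set of Me1 was not called (-0.13). Of 15 FOXO targets and quiescence-linked genes 3 rose and 3 fell (median 0.23). Foxo3 rose by 0.93 ± 0.21 (adjusted p = 0.00123) and the antiproliferative gene Btg1 read 13.16, 12.74, 12.31 and 12.32 at 48 h, against 12.30, 12.04, 11.73 and 11.80 at 36 h, a rise of 0.67 ± 0.12 (adjusted p = 7.76e-05). Txnip, an inhibitor of glucose uptake, fell by 0.60 (adjusted p = 0.0105), in all 4 pairs. Without DMSO 48 h replicate 2, 5 of this list rose and 1 fell, and 1 fell without DMSO 36 h replicate 2. Of 15 TGF-beta signalling genes 2 rose and 3 fell (median -0.19), with the receptor Tgfbr2 at 0.46 ± 0.12 (adjusted p = 0.00278), and 1 fell without DMSO 48 h replicate 3. Among 18 immediate early genes 1 rose, Ier5 (0.56 ± 0.08, adjusted p = 2.15e-06), and 0 fell (median -0.03). Of 8 genes of AhR and its targets limma called 0, and 1 was called higher without DMSO 36 h replicate 2 or 3. Ahr read 9.63, 9.04, 9.23 and 9.06 at 48 h, against 9.66, 9.30, 9.41 and 9.24 at 36 h (-0.16 ± 0.13, adjusted p = 0.419). Cyp1a1, the detoxification enzyme induced through AhR, read 6.57, 6.23, 6.70 and 6.23 at 48 h, against 6.02, 6.43, 5.69 and 5.66 at 36 h (0.48 ± 0.20, adjusted p = 0.0682).

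Of the 12 largest increases with all 4 pairs higher, several were dim at 36 h. Best1, an anion channel, read 7.62, 7.92, 7.56 and 7.84 at 48 h, against 6.57, 5.87, 5.80 and 6.22 at 36 h, a change of 1.62 ± 0.37 (adjusted p = 0.00122) and a fold of 3.08. Tmem140, a membrane protein, read 9.91, 9.36, 8.32 and 7.51 at 48 h, against 7.70, 7.35, 6.98 and 6.63 at 36 h. The days ran in the same order at both times, and the change was 1.61 ± 0.24 (adjusted p = 5.67e-06). Its other probe set did not pass (0.78). Tax1bp3, a PDZ domain protein, read 7.78, 7.32, 7.41 and 7.37 at 48 h, against 7.15, 7.05, 4.50 and 4.73 at 36 h, where 2 of the 36 h arrays were near the floor. Pla2g2e, a secreted phospholipase, rose by 1.56 ± 0.45 (adjusted p = 0.00902), Copz2, a coatomer subunit, by 1.57 ± 0.40 (adjusted p = 0.00354), Oit3 by 1.62 ± 0.41 (adjusted p = 0.00356), Sgsm2 by 1.52 ± 0.35 (adjusted p = 0.00125) and Iffo2 by 1.49 ± 0.33 (adjusted p = 0.00106). Maff, a small MAF factor, was called at 1.53 ± 0.45 (adjusted p = 0.0104) but not without DMSO 36 h replicate 3 (0.98). Ccl5, Nupr1 and Crebrf, described above, complete the set. Of the named genes called in either direction, 83 had another probe set bright enough to test, of which 50 had at least 1 other called in the same direction, 32 had none called and 1, Pik3cd, part of B cell receptor signalling, had 1 called in the opposite direction (-0.51). Its call was also lost without DMSO 48 h replicate 1 (0.36) or 2 (0.26) or DMSO 36 h replicate 4 (0.36). Other probe sets of opposite sign that were not called include those of Cars (-0.23), Ctsa (-0.16) and Tap1 (-0.48).

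The 12 largest decreases with all 4 pairs lower held several surface and signalling genes. Vcam1, an adhesion molecule, read 7.17, 7.46, 7.00 and 6.84 at 48 h, against 8.12, 8.14, 8.52 and 8.31 at 36 h. The groups were well apart, the change was -1.16 ± 0.13 (adjusted p = 7.62e-08), and its 2 other probe sets were called lower too (-0.94 and -0.92). Cpd, carboxypeptidase D, read 8.49, 8.13, 7.92 and 7.76 at 48 h, against 9.69, 9.19, 8.88 and 9.10 at 36 h, a change of -1.14 ± 0.12 (adjusted p = 3.65e-08), and 4 of its other probe sets were called in the same direction and 1 was not called (-0.80). Phlda1, an early response gene of growth factor signalling, read 7.98, 8.42, 7.33 and 8.25 at 48 h, against 9.54, 9.46, 8.92 and 9.73 at 36 h, a change of -1.41 ± 0.16 (adjusted p = 1.08e-07). Tnfsf13b, which encodes the B cell survival factor BAFF, read 4.91, 6.19, 4.23 and 6.27 at 48 h, against 6.88, 7.16, 6.81 and 6.94 at 36 h. It fell by 1.55 (adjusted p = 1.82e-05), with 2 arrays near the floor at 48 h and 2 other probe sets not called (-0.20 and -0.75). Lair1, an inhibitory receptor, read 6.67, 6.57, 6.45 and 6.90 at 48 h, against 8.03, 8.00, 7.46 and 7.76 at 36 h, a change of -1.17 ± 0.17 (adjusted p = 5.07e-06). Ttc8 fell by 1.19 (adjusted p = 3.25e-06) and Mpzl2, a junction protein, by 1.13 (adjusted p = 0.00119). The other 4 had low signals at 48 h. Sox11 read 4.58, 4.74, 4.60 and 4.69 at 48 h, against 6.42, 6.39, 6.49 and 5.90 at 36 h, a change of -1.65 ± 0.36 (adjusted p = 0.000728), and Tm6sf2 fell by 1.42 (adjusted p = 0.00103). The other probe sets of Sox11 were too dim to test. Gfap was called at -1.13 ± 0.34 (adjusted p = 0.0116) but not without DMSO 48 h replicate 2 (-0.75). Nrxn3 was called at -1.71 ± 0.58 (adjusted p = 0.0275) but not without DMSO 48 h replicate 3 (-1.49) or 4 (-1.63) or DMSO 36 h replicate 1 (-1.68) or 3 (-1.47), and its other probe set bright enough to test was not called (-0.10).

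The step was then set against the one before it, DMSO 36 h minus DMSO 24 h. Because both use the 36 h arrays, only the contrast of the 2 steps is read. It was called for 264 genes (2.21%), 146 with the later step more positive (1.22%) and 118 with it more negative (0.986%). Of the genes named above, 12 had it called. Many of those genes were named for their 36 to 48 h change, a term of this contrast, so their count is not comparable with the 2.21%. For Prdm1 the contrast was -0.77 ± 0.14 (adjusted p = 0.00541). Prdm1 means ran 8.13, 10.11, 10.19, 10.82, 10.95 and 10.32 from 0 to 48 h, so its highest mean was at 36 h. For Slc2a1 the contrast was -1.06 ± 0.24 (adjusted p = 0.016), for Atg12 0.90 ± 0.19 (adjusted p = 0.00949), for Eno2 1.23 ± 0.30 (adjusted p = 0.0253) and for Ccr7 0.62 ± 0.16 (adjusted p = 0.0355). It was largest for the dim gene Sox11, at -3.15 ± 0.62 (adjusted p = 0.00731), with means of 4.79 at 24 h, 6.30 at 36 h and 4.65 at 48 h. Among its vehicle and untreated means only that at 36 h exceeded the filter cut of 6.21. Both steps use that mean, so the filter may have favoured this peak. The contrast was 2.30 for Sgsm2, -1.34 for Txnip, -1.21 for Phlda1, -1.16 for Ttc8 and -0.41 for Pgam1. For Nop16 it was -0.48 ± 0.11 (adjusted p = 0.0204), with means of 12.26 at 24 h, 12.03 at 36 h and 11.32 at 48 h. For Vcam1, whose means were lower at each time from 24 h on, the contrast was not called. Its means were 10.85 at 12 h, 9.22 at 24 h, 8.27 at 36 h and 7.12 at 48 h (-0.21 ± 0.22, adjusted p = 0.689). The rises of Nupr1 (-0.91 ± 0.70, adjusted p = 0.554) and Ddit3 (-0.42 ± 0.36, adjusted p = 0.604) had contrasts that were not called either. The 5 genes with the smallest p were Adk, adenosine kinase (-0.80 ± 0.11, adjusted p = 0.000148), Nqo2, a quinone reductase (-0.97 ± 0.13, adjusted p = 0.000148), the membrane protein Myadm (-1.28 ± 0.19, adjusted p = 0.000321), the RNA helicase Ddx17 (1.16 ± 0.18, adjusted p = 0.000678) and Cox15, a heme A synthesis enzyme (-1.39 ± 0.23, adjusted p = 0.00201). This count is sensitive to single arrays, with 38 genes called without DMSO 36 h replicate 2 and 437 without DMSO 48 h replicate 4.

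**Figure D3:**
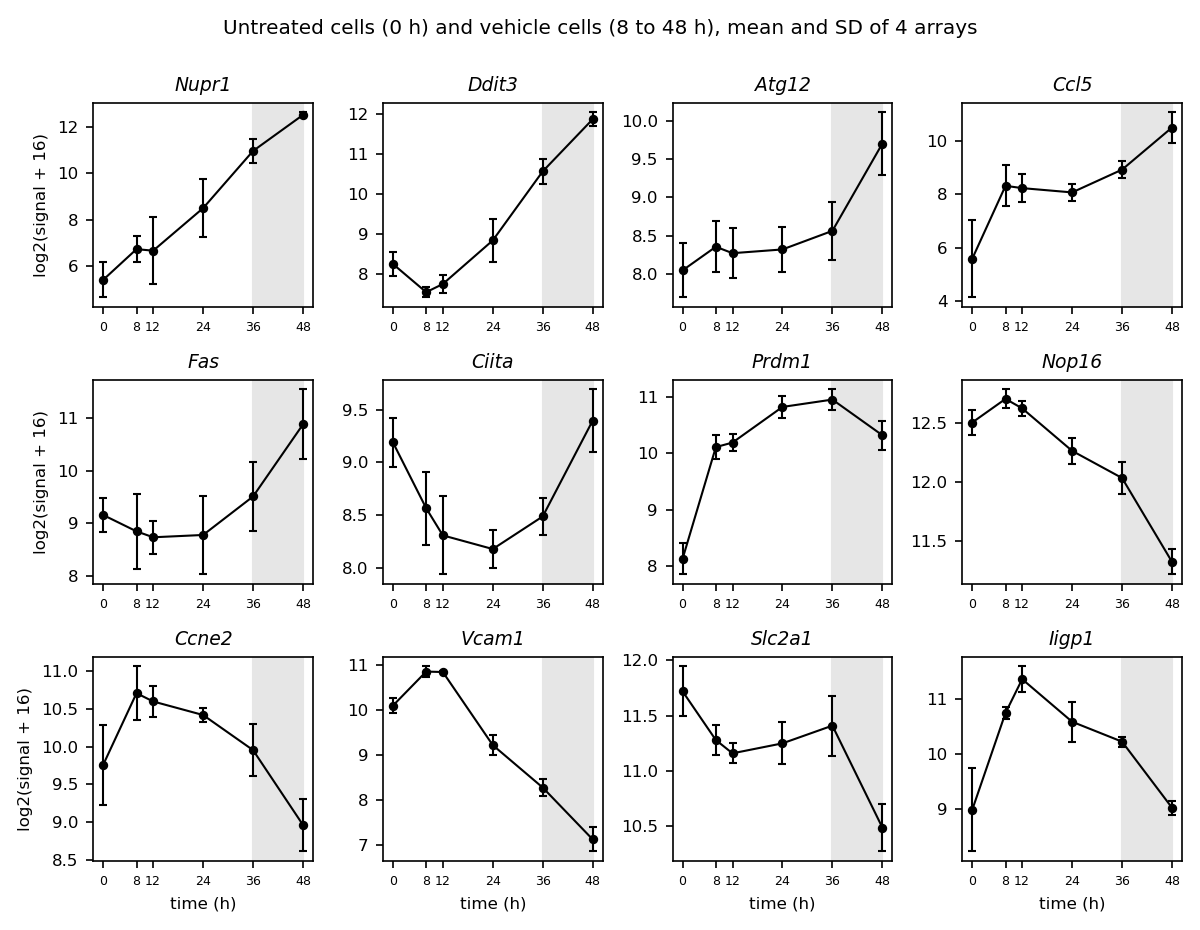
Means of 12 genes, as log2(signal + 16), in untreated cells at 0 h and vehicle cells at 8, 12, 24, 36 and 48 h, with bars for the SD of 4 arrays. The shaded band marks 36 to 48 h. Prdm1 has its highest mean at 36 h (10.95) and a mean of 10.32 at 48 h, while Nupr1 and Ddit3 have their highest means at 48 h.

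The same 12 h in cells given TCDD share no array with the vehicle comparison. TCDD 48 h minus TCDD 36 h gave 1439 calls (12.0%), 772 higher (6.45%) and 667 lower (5.57%). The median absolute log2 change of all genes tested was 0.21 in vehicle cells and 0.16 in TCDD cells. The fit gives each gene the same standard error in both comparisons (median 0.13), so it cannot compare the noise of the 2 treatments. Called in both with the same direction were 1108 genes, 36.0% of the vehicle calls and 77.0% of the TCDD calls, and 1 gene called lower in vehicle cells was called higher in TCDD cells. Of the genes called higher in vehicle cells 92.9% had a positive change in TCDD cells, against 54.0% of all genes tested, and of those called lower 94.5% had a negative one. Over all genes tested the changes of the 2 treatments had a Pearson r of 0.53 and a Spearman rho of 0.56, a description over genes that share arrays.

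Tested directly, the vehicle step minus the TCDD step was called for 0 genes by limma, with a smallest adjusted p of 0.0579 and 1088 genes (9.09%) at an unadjusted p under 0.05. A difference that misses this test is not shown to be absent. Over all genes tested, 14.7% were called higher in vehicle cells and 6.45% in TCDD cells, and 11% and 5.57% were called lower. Fewer calls of a list in TCDD cells are therefore not by themselves particular to that list. Whether the drop of any list exceeded that of all genes was not tested. CDK inhibitors, D cyclins and pocket proteins went the other way. Of 11 tested, 1 rose in vehicle cells and 5 in TCDD cells, with medians of 0.19 and 0.29. In the MYC and ribosome biogenesis list 17 of 24 fell in vehicle cells (median -0.30) and 12 in TCDD cells (-0.23). For G1/S and DNA replication 17 of 30 fell in vehicle cells and 6 in TCDD cells, with medians of -0.30 and -0.13. For lysosome and autophagy 15 of 27 rose in vehicle cells and 4 in TCDD cells (0.34 and 0.11), for the integrated stress response 10 and 3 of 25 (0.44 and 0.26), and for p53 targets 8 and 3 of 18 (0.45 and 0.31). For MHC class II 8 of 11 rose in vehicle cells and 6 in TCDD cells, with medians of 0.34 and 0.32. The interferon response list had medians of opposite sign, 0.22 in vehicle cells with 7 of 27 higher and 1 lower, and -0.12 in TCDD cells with 0 higher and 3 lower.

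Prdm1 had a change of -0.64 ± 0.08 in vehicle cells and of -0.13 ± 0.08 in TCDD cells (adjusted p = 0.36), a difference of -0.51 ± 0.12 (adjusted p = 0.132). Ddit3 rose in both, by 1.30 ± 0.21 in vehicle cells and 1.02 ± 0.21 in TCDD cells (adjusted p = 0.00134). Atg12 rose by 1.14 ± 0.11 in vehicle cells and 0.52 ± 0.11 in TCDD cells (adjusted p = 0.00125), with a difference of 0.62 ± 0.15 (adjusted p = 0.164). Nop16 fell in both, with changes of -0.71 ± 0.06 in vehicle cells and -0.55 ± 0.06 in TCDD cells (adjusted p = 1.68e-06). Best1 had a change of 1.62 ± 0.37 in vehicle cells and -0.40 ± 0.37 in TCDD cells, and Eno2 one of 1.36 ± 0.17 in vehicle cells and 0.39 ± 0.17 in TCDD cells, with differences of 2.02 ± 0.52 (adjusted p = 0.164) and 0.97 ± 0.24 (adjusted p = 0.164). Cyp1a1 was at 0.48 ± 0.20 in vehicle cells and -0.53 ± 0.20 in TCDD cells, a difference of 1.01 ± 0.28 (adjusted p = 0.22).

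**Figure D4:**
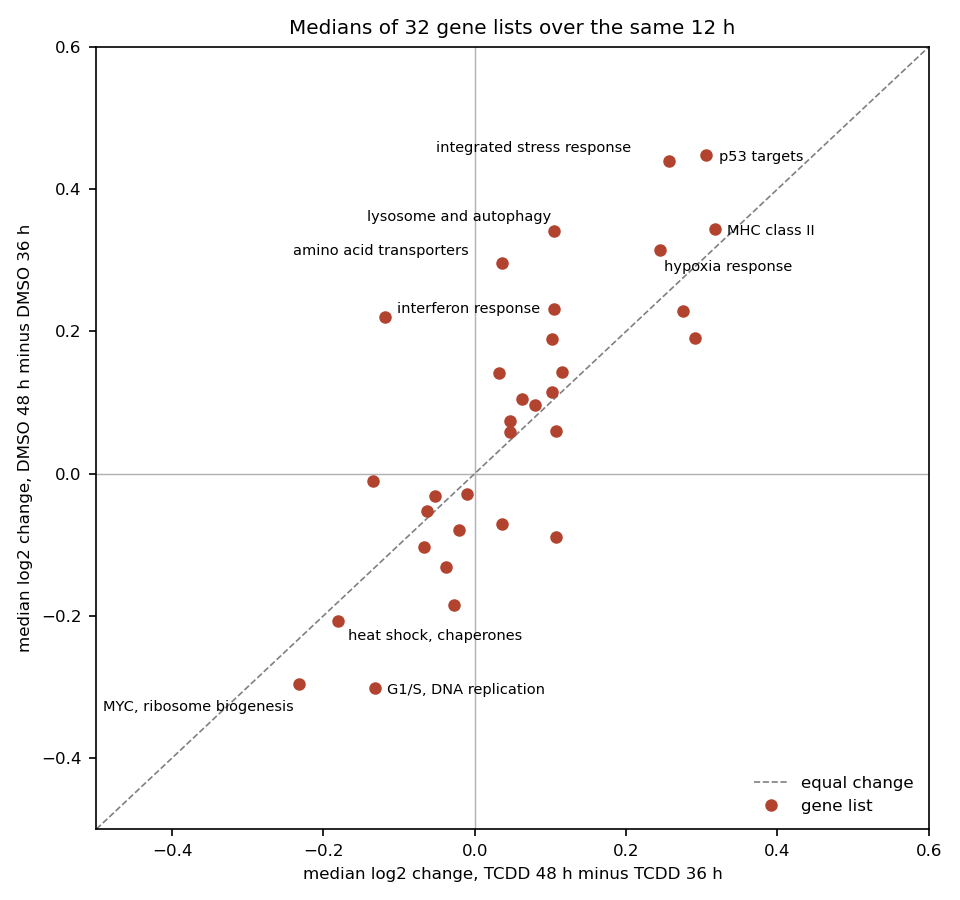
Median log2 change of each of 32 gene lists from 36 to 48 h, in vehicle cells (vertical axis, DMSO 48 h minus DMSO 36 h) and in TCDD cells (horizontal axis, TCDD 48 h minus TCDD 36 h). The dashed line marks equal change. MYC and ribosome biogenesis lies low in both (-0.30 and -0.23), MHC class II lies near the line (0.34 and 0.32), and the interferon response has medians of opposite sign (0.22 and -0.12).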

How the data were processed

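Expression was measured in total RNA of CH12.LX cells on single-colour Affymetrix Mouse 430 2.0 arrays, 1 per sample, in 11 groups of 4. The deposited values are linear signal intensities. GCOS 1.0 is the tool in the submitters' processing notes, and the mean of each of the 44 columns is 500.0 once 2% of values are trimmed at both ends. Background and summary settings: not given in the sources used here. Because medians of log2(signal + 16) spanned 0.91, above the limit of 0.2, the deposited intensities were quantile normalized and turned into log2(signal + 16). Of 45101 probe sets 64 are controls; 34945 of the others carry 1 gene symbol in the annotation table, 932 several and 9160 none, and 34741 symbols matched the GRCm38.p6 gene table, which changed 0. Each gene was read from its brightest probe set with 1 symbol, and genes whose highest group mean exceeded 6.21 were kept (11970 of 18193).

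One limma 3.58.1 fit (R 4.3.3) held 11 group means and the replicate number as a block. Per the labels and design text, same-numbered samples share a day; their deviations from group means correlated at 0.099 to 0.39 within DMSO 48 h and 36 h pairs (3 of 4 above 0.1, median 0.22), against a median of -0.048 for different numbers. P-values measure the spread between these cultures that remains once shifts shared by a day are taken out. The members and gene lists were chosen with earlier results of these data known. Genes named are the 12 largest changes per direction with 4 of 4 pairs agreeing, leaving out 2 unapproved symbols per direction, up to 4 called members per list, the 5 smallest p of each difference test that called any, 15 genes regardless of value, and list members named as not called. The 32 gene lists are described by counts. In simulated data for DMSO 48 h against 36 h over 11970 genes, 70% of 1.5-fold, 86% of 2-fold, 90% of 3-fold and 100% of 4-fold changes were recovered and 9 unchanged genes called. Promoter windows are from RefSeq (GRCm38.p6). Alternatives were no or a random block, fewer arrays, values as deposited, other filters, pseudocounts of 1 and 64, other uses of probe sets, a prior variance that follows intensity, and fits without each array or day. Python 3.11.15 and matplotlib 3.10.9 drew the plots.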

Additional observations from a re-analysis of the deposited data

Results flagged for a closer look

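The named genes were checked for single arrays that stand apart from the other 3 of their group, by Dixon's criterion on the gap to the nearest array as a share of the group's range. Of 306 gene and group checks 20 met it, where chance flags about 1 in 20 groups. At 48 h these were replicate 2 for Nrxn3 (7.293), Tm6sf2 (5.297), Cxcr4 (10.32) and Itgb2 (9.281), replicate 4 for Rrm2 (13.41) and Nqo2 (7.956), replicate 1 for Mxi1 (10.31), and replicate 3 for Gsr (10.1), H2-Oa (9.971) and Psmb9 (14.25). At 36 h they were replicate 3 for Oit3 (6.411), Ung (10.91), Ciita (8.752) and Psmb9 (13.74), replicate 4 for Sox11 (5.901), Bach2 (5.419) and Foxo3 (8.308), and replicate 1 for Iigp1 (10.35), Fdft1 (10.98) and Adk (12.64). All are log2(signal + 16) values.

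In limma's contrast of steps the 36 to 48 h change differed from the 24 to 36 h change most clearly for Adk (-0.80), Nqo2 (-0.97), Myadm (-1.28), Ddx17 (1.16) and Cox15 (-1.385), on the log2 scale.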

How the results depend on the processing

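The count of genes called at 48 h against 36 h in vehicle cells was 3077. With no replicate block it was 1968, with the 8 arrays alone 828 and over every probe set 5157; leaving out a replicate's day or 1 array gave 1924 to 3048. Counts with higher and lower genes split were 1131 and 837 with no replicate block and 508 and 320 with the 8 arrays. With probe sets averaged by gene they were 1214 and 1239, and over every probe set 2474 and 2683. The excess of higher genes was therefore not kept under these 2 uses of probe sets. For TCDD cells (1439) the count was 605 with no replicate block and 564 to 1601 with leave-outs. The contrast of the vehicle and TCDD steps (0) gave 3 with values as deposited, 6 with a pseudocount of 1, 3 with 64, 6 with probe sets averaged by gene, 1 over every probe set, 5 with an intensity trend and 0 to 20 with leave-outs. The contrast with the earlier step (264) gave 13 with no replicate block, 165 with a random replicate block, 27 with vehicle and untreated arrays only, 106 with no filter, 175 with the mean of probe sets and 4 to 437 with leave-outs. The direction turned in some leave-outs for genes not called, with a log2 change of Jchain of -0.116 to 0.139, a log2 change of Ighm of -0.0229 to 0.192, a log2 change of Myc of -0.134 to 0.00509 and a log2 change of Myadm of -0.166 to 0.0239, and with probe sets averaged for Ighm (-0.12), Fkbp11 (-0.244), Cenpf (-0.052) and Tap1 (-0.0413). Of 142 named calls, no replicate block lost 26, the 8 arrays alone 68 and leaving out DMSO 48 h replicate 2 lost 21. The cause was not tested. With 4 arrays a group, probe sets near the floor of 4 limit the precision.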
